A study of Mus musculus with 2 samples.

Results

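The genes described here are the Wnt ligands, the receptors that bind them, and genes of the response to Wnt signals, measured in the embryonic mouse ureter with and without the gene Rbpj. They were taken by name from the array: every non-control probe named for a Wnt gene, a Frizzled gene, a co-receptor (Lrp5, Lrp6, Ror1, Ror2, Ryk), an R-spondin receptor (Lgr4, Lgr5), a receptor-removing ligase (Rnf43, Znrf3) or one of 7 transcription factor and response genes (Axin2, Lef1, Tcf7, Nkd1, Nkd2, Sp5, Tnfrsf19). This gave 61 of 39429 probes, which stand for 45 of 30011 gene names on the array. The rule uses names alone.

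The study compared ureters of NMRI mouse embryos at stage E14.5, in days of embryonic development. The Rbpj-cKO embryos were Tbx18(cre/+);Rbpj(fl/fl), so that Cre recombinase was made from 1 allele of Tbx18 and removed Rbpj where that gene is active, in the undifferentiated mesenchyme of the ureter. The controls were Rbpj(fl/?), with at least 1 floxed allele, and their labels list no Cre. Each of 2 two-colour Agilent arrays held RNA of both genotypes: replicate 1 of male embryos with Rbpj-cKO in the red dye, replicate 2 of female embryos with Rbpj-cKO in the green dye. Sex and dye orientation cannot be told apart in this design, and the sources used here do not state the number of embryos per channel. Since whole ureters were used, fewer cells of a type and less RNA per cell cannot be told apart either.

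Wnt proteins are secreted, lipid-modified ligands that bind Frizzled receptors together with a co-receptor. With Lrp5 or Lrp6 the signal stabilises beta-catenin, which acts with the DNA-binding proteins of the Tcf/Lef family, and Axin2, Nkd1, Sp5, Rnf43 and Znrf3 are common targets that feed back on the pathway. With Ror1, Ror2 or Ryk the signal can run without beta-catenin. In the ureter, Wnt7b and Wnt9b from the epithelium act on the surrounding mesenchyme, which gives rise to the smooth muscle coat.

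Values are log2 ratios of Rbpj-cKO over control, given for replicate 1 and then replicate 2, or as the mean ± SD of n = 2 arrays. Over the 20495 genes tested, the ratios on replicate 1 and replicate 2 were negatively correlated (r = -0.352, Pearson, across genes, which are not independent replicates), although the dyes were turned as the labels state. Rbpj itself was lower on both arrays, at -1.13 and -0.63 with its brighter probe and -0.48 and -0.37 with the other. Tbx18 had 0.17 and -0.24. The RNA labelled female Rbpj-cKO gave signals for the Y-linked genes Ddx3y and Eif2s3y at 8.04% and 8.89% of those of male Rbpj-cKO, well above background on 4 of 4 spots. In the same channel the dimmer Y-linked probes of Kdm5d and Uty had 0 of 4 such spots. In male Rbpj-cKO these probes gave only 13.72 (Kdm5d), and 65.45 and 47.73 (Uty). Signal at the share seen for Ddx3y and Eif2s3y could therefore have escaped detection. The female-specific transcript Xist had a signal of 1398 in female Rbpj-cKO, against 1794 in female control. Y-linked signal in the RNA labelled female Rbpj-cKO goes against its label. In female control, Eif2s3y was well above background on 2 of 4 spots, with a signal of 13.2 against 218 in female Rbpj-cKO. Where both arrays are given below, the value of replicate 1 is that of the male pair alone. Medians, and means given alone, rest on both arrays. Markers of the labelled tissue were detected: all 10 urothelial genes, all 7 genes of the ureteric mesenchyme and all 7 smooth muscle genes looked for were above background.

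Of the 45 genes, 39 were measured, meaning that on each array some probe of the gene stood clear of background on 2 or more of its 4 spots in either channel. Among these 39, 11 had higher signals in Rbpj-cKO on both arrays and 8 had lower ones, while 20 had opposite signs (7 higher and 4 lower with median centring of the arrays). Of all genes tested, 16.1% were higher on both, 14.7% lower on both and 69.2% opposite. These shares were not counted with median centring. The median log2 ratio of the members was 0.027, against -0.0033 for all genes tested. Their means ran from -0.34 for Fzd9 to 0.75 for Fzd10. None of the 39 differed by 1.5-fold or more in the same direction on both arrays (0 higher, where 0.132% of all genes were, and 0 lower, where 0.0634% were), and 0 did so in opposite directions (0.717% of all genes). Past 1.5-fold on a single array were Fzd10 and Tnfrsf19, both on replicate 2. Over all 20495 genes tested, 359 were past 1.5-fold on replicate 1 and 614 on replicate 2.

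None of the members passed the test. With limma and Benjamini-Hochberg adjustment over all genes, 0 members had an adjusted p under 0.05 (0% of all genes), and each had an adjusted p of 1. At an unadjusted p under 0.05 there were 3 members, Fzd10, Wnt6 and Tnfrsf19, where 1.82% of all genes passed. That count was 1 with median centring and 5 without the filter on dim probes. In processed signal, both Rbpj-cKO channels lay above both control channels for 7 members and below them for 1, where 3.85% and 3.54% of all genes did so. The test has 1 residual degree of freedom, and a missed threshold does not show that a gene was unchanged. Across the 39 genes, 20 of which had opposite signs, the ratios of the arrays had a weak positive correlation (Pearson's r = 0.356, or 0.208 without Fzd10), a description with no p, since the genes share the same 2 arrays.

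**Figure D1:**
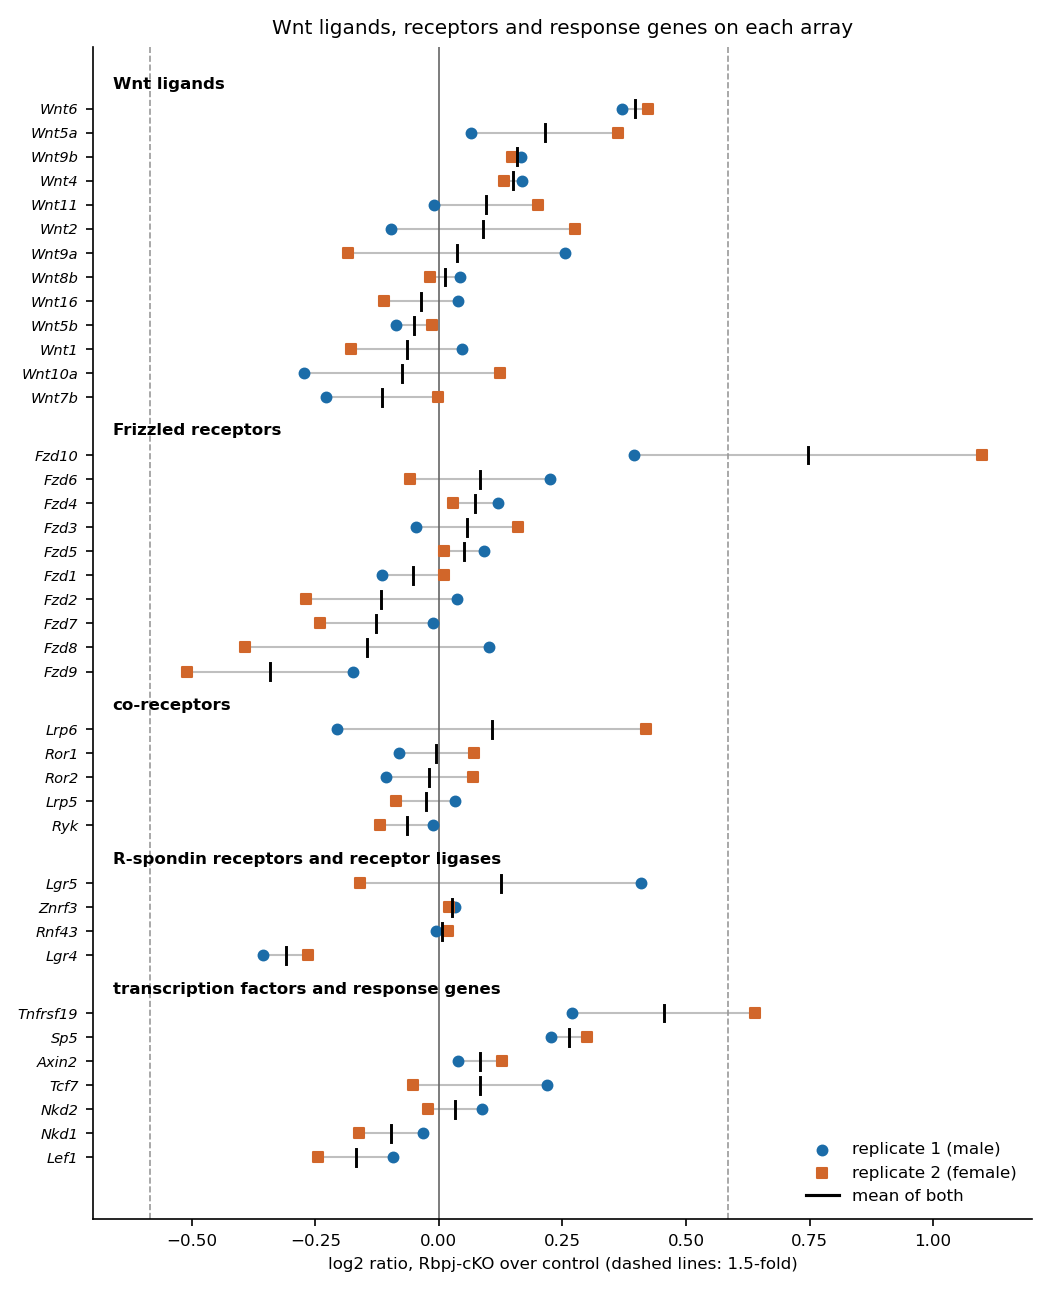
Log2 ratio of Rbpj-cKO over control (horizontal axis) for each of the 39 measured genes, grouped by role; circles are replicate 1, squares replicate 2, black bars their mean, and dashed lines mark 1.5-fold. Fzd10 lies farthest to the right with 0.39 and 1.10, and the means of Fzd9 (-0.34) and Lgr4 (-0.31) lie farthest to the left.

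**Figure D2:**
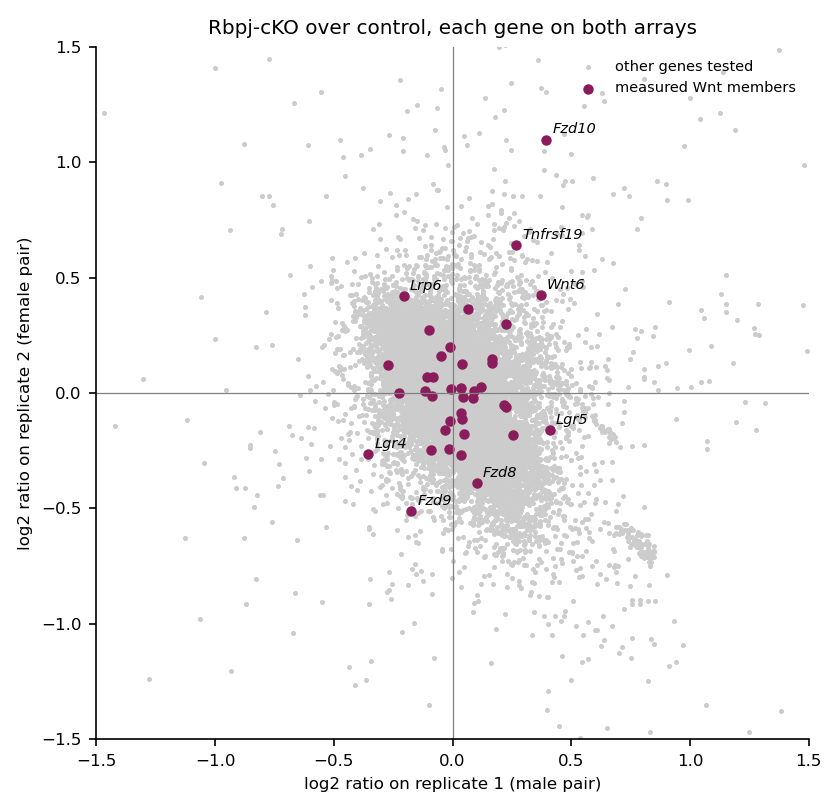
Log2 ratio on replicate 1 (horizontal) against replicate 2 (vertical) for the measured Wnt members (dark) and the other genes tested (grey); 43 genes lie outside the axes. The grey cloud slopes downward (r = -0.352), and Fzd10, Tnfrsf19 and Wnt6 stand in the upper right, where both ratios are above 0.

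Of 19 Wnt genes on the array, 13 were measured. The other 6, Wnt2b, Wnt3, Wnt3a, Wnt7a, Wnt8a and Wnt10b, were not well above background: the probes of Wnt2b, Wnt3, Wnt3a and Wnt8a had 0 of 4 such spots in every channel, Wnt10b had 1 in each, and Wnt7a had 2 in female control alone. Among the 13, 4 were higher on both arrays (Wnt4, Wnt5a, Wnt6 and Wnt9b), 2 were lower on both (Wnt5b and Wnt7b) and 7 had opposite signs. The median of the 13 was 0.036. With median centring Wnt4, Wnt9b and Wnt5b had opposite signs too. Wnt5b and Wnt7b also had opposite signs with the scanner software's own ratios and in the authors' series table. For Wnt7b this held without background subtraction as well.

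Wnt6, a ligand made by several embryonic epithelia, had the largest ratio of the ligands. Its processed signal, in the scanner software's arbitrary units, was 192 in male control and 251 in male Rbpj-cKO, and 219 in female control and 308 in female Rbpj-cKO. Both Rbpj-cKO channels thus exceeded both control channels. The log2 ratios were 0.37 and 0.42, averaging 0.40 ± 0.037 (SD, n = 2), or 1.32-fold (limma unadjusted p = 0.0201, adjusted p = 1). The spot SD within an array was 0.032 and 0.070. This mean was larger in size than that of 98.42% of all genes tested. The Wnt6 probe lies at mm9 chr1:74831461-74831520, and its first 30 of 60 bases, shown because the ratio rests on this probe alone, are given as deposited.
Wnt6: ttcctcagaattactgggatggatgggtga

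Wnt10a lies beside Wnt6, 19.1 kb away between their probes in mm9, and had -0.27 and 0.12. Of the other neighbouring ligand genes, Wnt9b and Wnt3 have probes 90.1 kb apart, Wnt9a and Wnt3a 85.3 kb, and Wnt1 and Wnt10b 21.0 kb. In each of these 3 pairs only the first gene was measured. Wnt9a had 0.26 and -0.18, and Wnt1, a ligand best known from the midbrain and neural tube, 0.05 and -0.18. The other Wnt1 probe had 0 of 4 spots well above background in every channel.

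Of the epithelial ligands of the ureter, Wnt9b had signals of 271 and 277 in male and female control and of 300.5 and 321 in Rbpj-cKO, with ratios of 0.17 and 0.15, a mean of 0.16 ± 0.014 (limma adjusted p = 1). Wnt7b had 206 and 161 in control and 170.5 and 163 in Rbpj-cKO, with ratios of -0.23 and 0.00 (-0.0014), a mean of -0.11 ± 0.16. The Rbpj-cKO channels of Wnt9b lay above its control channels, while those of Wnt7b lay within the span of its controls.

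Wnt4, which drives epithelial conversion in the kidney, had 0.17 and 0.13 with its brighter probe, a mean of 0.15 ± 0.026. Its dimmer probe gave 0.16 and -0.21, so the direction on replicate 2 depended on the probe. Wnt5a, the main ligand of the beta-catenin-independent branch, had signals of 801 and 692 in male and female control and 834.5 and 896.5 in Rbpj-cKO. Its ratios were 0.07 and 0.36 with a mean of 0.214 and an SD of 0.210 (n = 2, limma adjusted p = 1), so that the mean was about as large as the spread between the arrays. Its close relative Wnt5b had -0.09 and -0.01.

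The remaining measured ligands had means between -0.075 and 0.095. Wnt11, a marker of the ureteric bud tip, had -0.01 and 0.20. Wnt2 had -0.10 and 0.27, Wnt16 0.04 and -0.11, and Wnt8b 0.04 and -0.02. Each of these had opposite signs on the arrays. Wnt16 and Wnt8b each had another probe, which did not pass the filter.

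All 10 Frizzled genes were measured. Of these, 3 were higher on both arrays (Fzd4, Fzd5 and Fzd10), 2 lower on both (Fzd7 and Fzd9) and 5 opposite. Their median was -0.00059. With median centring Fzd4, Fzd5 and Fzd7 had opposite signs too. Fzd5 also had opposite signs with the scanner software's own ratios and without background subtraction. With probes averaged, both Fzd5 and Fzd7 had opposite signs. The extremes of the whole set were both Frizzled genes.

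Fzd10 had processed signals of 313 in male control and 408 in male Rbpj-cKO, and of 236.5 in female control and 548 in female Rbpj-cKO. Both Rbpj-cKO channels lay above both controls, and the female pair was farther apart than the male pair. The ratios were 0.39 and 1.10, averaging 0.75 ± 0.50 (SD, n = 2), or 1.68-fold (limma unadjusted p = 0.00627, adjusted p = 1), larger in size than that of 99.59% of all genes tested. The spot SDs within an array were 0.038 and 0.067. The probe lies at mm9 chr5:129109798-129109857, and its first 30 bases are shown because it is the only probe behind the largest ratio of the set.
Fzd10: ttgactctctgaattgttaaacaaatgatt

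Fzd9, a receptor known from the nervous system and bone, had the lowest mean of the set. Its signals were 538 and 497 in male and female control and 471 and 341.5 in Rbpj-cKO, with both Rbpj-cKO channels below both controls. The ratios were -0.17 and -0.51, which average to -0.34 ± 0.24, a 1.27-fold difference (limma unadjusted p = 0.0533, adjusted p = 1). Fzd1 had -0.11 and 0.01.

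The brightly detected receptors Fzd2 and Fzd7 had means of -0.12 ± 0.22 and -0.13 ± 0.16, with ratios of 0.04 and -0.27, and of -0.01 and -0.24. The second probe of Fzd7 gave 0.03 and -0.20, close to the first on both arrays, while that of Fzd2 gave -0.07 and 0.06. Fzd4, which also binds the ligand norrin in blood vessels, had 0.12 and 0.03, and Fzd5 0.09 and 0.01. The second probe of Fzd5 gave -0.0090 and -0.048, so its direction depended on the probe. Fzd8 had 0.10 and -0.39, Fzd6 0.22 and -0.06, and Fzd3, known from axon tracts, -0.05 and 0.16.

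Among the 5 co-receptors, 0 were higher on both arrays, 1 was lower on both and 4 had opposite signs. The lower gene was Ryk, an atypical receptor kinase, with -0.01 and -0.12, or 0.16 and -0.31 with median centring. The beta-catenin co-receptor Lrp5 had 0.03 and -0.09. The receptor kinases Ror1 and Ror2, which bind Wnt5a, had -0.08 and 0.07, and -0.11 and 0.07. The dimmer probe of Ror1 gave -0.0048 and -0.34, so its direction on replicate 2 depended on the probe.

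Lrp6 could not be read in either direction, since its probes opposed each other on both arrays. The brighter probe gave -0.21 and 0.42 and the dimmer one 0.08 and -0.23, with spot SDs of at most 0.060. Their GC contents were 45% and 55%, a property whose part in this difference was not tested. The first 30 bases of the probes, at mm9 chr6:134400440-134400499 and chr6:134404723-134404782, are set out to show that they are different oligonucleotides.
Lrp6 brighter probe: caaaggaaacaggaaaagaaaggcatcact
Lrp6 dimmer probe: atcgagcgcacgtcacgggagcctcctcaa

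R-spondins strengthen Wnt signals by binding Lgr4 or Lgr5, which takes the ligases Rnf43 and Znrf3 away from the Frizzled receptors that they mark for removal. Lgr4 had signals of 325 and 238.5 in male and female control and of 244 and 198 in Rbpj-cKO. Within each array Rbpj-cKO was the lower channel, although male Rbpj-cKO exceeded female control. The ratios were -0.36 and -0.26, which average to -0.31 ± 0.065 (SD, n = 2), a 1.24-fold difference (limma unadjusted p = 0.0524, adjusted p = 1), larger in size than that of 97.24% of all genes. Lgr5, itself a target of the pathway, had 0.41 and -0.16, opposite signs, with its second probe not well above background on any spot. The ligase genes stood near 0 on both arrays: Rnf43 had -0.01 and 0.02, with a mean of 0.0063, and Znrf3 0.03 and 0.02, with a mean of 0.027. Znrf3 was dim, with signals of 33.46 to 42.55. The offset of the background correction pulls ratios of such spots towards 0. With the scanner software's own ratios Znrf3 had -0.0072 and 0.076.

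Of the 7 transcription factor and response genes, 3 were higher on both arrays (Axin2, Sp5 and Tnfrsf19), 2 were lower on both (Lef1 and Nkd1) and 2 opposite (Nkd2 and Tcf7), with a median of 0.083; with median centring Axin2, Lef1 and Nkd1 had opposite signs too. Axin2, the most widely used readout of beta-catenin signalling, had signals of 183 and 151 in male and female control and of 185 and 170.5 in Rbpj-cKO. Its ratios were 0.04 and 0.13, a mean of 0.084 ± 0.063 (limma adjusted p = 1). A second, dimmer probe gave -0.05 and 0.21, with the same mean of 0.084. The Rbpj-cKO channels of Axin2 overlapped its control channels.

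Sp5, a zinc-finger factor and direct target of beta-catenin, had signals of 88.5 and 76.0 in male and female control and of 105 and 99.7 in Rbpj-cKO, with no overlap between the groups. The ratios were 0.23 and 0.30, a mean of 0.26 ± 0.052 (limma unadjusted p = 0.0858, adjusted p = 1). Lef1, a DNA-binding partner of beta-catenin whose own gene responds to it, had -0.09 and -0.25, a mean of -0.17 ± 0.11, and its second probe gave -0.08 and -0.35. Lef1 was thus lower on both arrays with both probes. Axin2 and Sp5 against Lef1 and Nkd1 put these targets on both sides of 0. Tcf7 had 0.22 and -0.05 with its brighter probe, and 0.07 and -0.10 with the dimmer one.

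Tnfrsf19, a receptor of the tumour necrosis factor family that responds to Wnt signals, had signals of 201 and 186 in male and female control and of 243 and 303 in Rbpj-cKO, again without overlap. The ratios were 0.27 and 0.64, averaging 0.45 ± 0.26 (SD, n = 2), or 1.37-fold (limma unadjusted p = 0.0198, adjusted p = 1). Its other probe was well above background on 1 to 3 spots a channel and gave -0.06 and 0.12, a mean of 0.031, and averaging both probes lowers the mean to 0.24. The probes lie at mm9 chr14:61582873-61582932 and chr14:61589667-61589726, with GC contents of 36.7% and 55%.
Tnfrsf19 brighter probe: atggaatatattttgaatcgcaggattttc
Tnfrsf19 dimmer probe: aagccaaggaggctgggaagacagggaaaa

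The Naked cuticle genes encode inhibitors that bind Dishevelled. Nkd1 had -0.03 and -0.16 with the brighter probe, a mean of -0.097 ± 0.092, and 0.32 and -0.55 with the dimmer one, a mean of -0.11. The means were alike, but on replicate 1 the probes pointed in opposite directions. Nkd2 had 0.09 and -0.02 with the brighter probe, and 0.02 and 0.07 with the other. The Nkd1 probes, at mm9 chr8:91116160-91116219 and chr8:91118468-91118527, are shown for their disagreement.
Nkd1 brighter probe: cactaatatttagccagccttcatgtagaa
Nkd1 dimmer probe: taagagatcaaggtagcgcataaaggctta

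**Figure D3:**
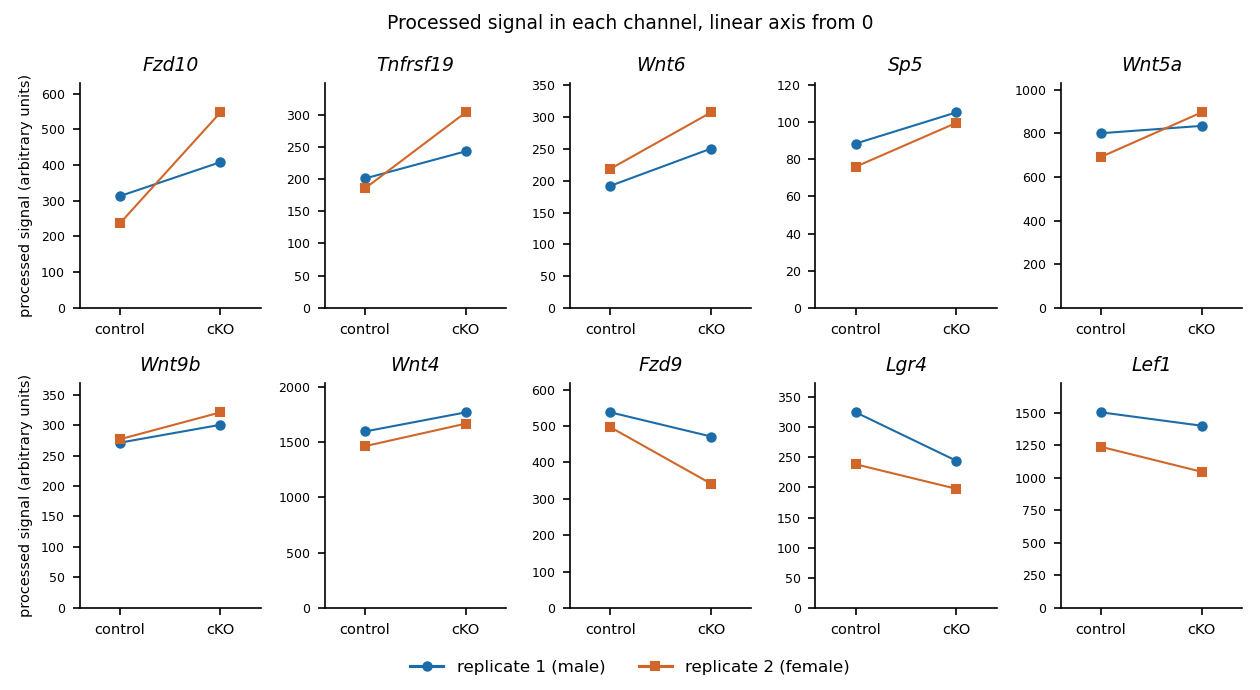
Processed signal (vertical axis, arbitrary units, linear from 0) in control and Rbpj-cKO for 10 members, with 1 line per array; each panel has its own scale, and levels of different genes are not to be compared. In the panels of Fzd10, Tnfrsf19, Wnt6, Sp5, Wnt5a, Wnt9b and Wnt4 both Rbpj-cKO points lie above both control points, in that of Fzd9 both lie below, and in those of Lgr4 and Lef1 the groups overlap.

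Probe choice mattered for part of the set. Of 12 members with 2 probes past the filter, 8 had means of the same sign by both and 4 (Fzd5, Lrp6, Tcf7 and Wnt4) did not. Every probe of the 61 was 60 bases long, with a median GC content of 41.7% in the set and 41.7% over the array.

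**Figure D4:**
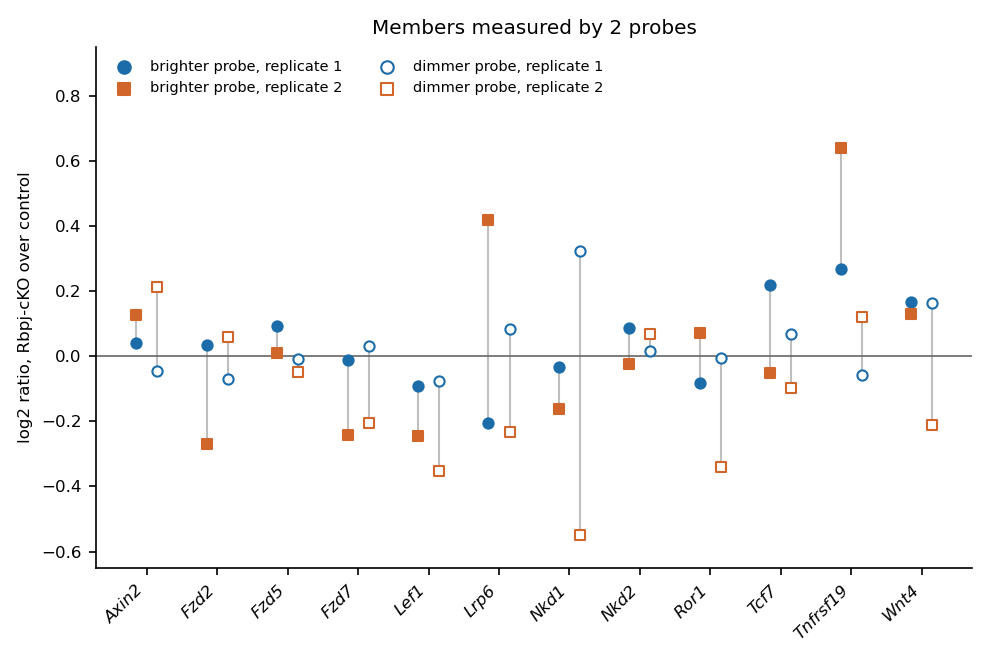
Log2 ratio of Rbpj-cKO over control (vertical axis) for the 12 members with 2 probes past the filter; filled symbols are the brighter probe, open symbols the dimmer one, circles replicate 1 and squares replicate 2. Lef1 stays below 0 with all 4 values, whereas for Lrp6 the probes swap sides of 0 on both arrays.

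Over 6 other ways of computing the ratio (the scanner's own ratios, no background subtraction, median centring, outlier spots kept, probes averaged, and the authors' series table), 5 genes stayed higher on both arrays in each: Fzd10, Sp5, Tnfrsf19, Wnt5a and Wnt6. Likewise 2 genes stayed lower on both, Fzd9 and Lgr4. Among these genes Tnfrsf19 alone has 2 probes past the filter, so averaging probes could not change the others. How many of all genes tested kept their direction in this way was not counted, and the 6 ways reuse the same 2 arrays. The counts of 5 and 2 are thus a description, without a share of all genes beside them. Under median centring Lef1 had 0.06 and -0.43, Wnt4 0.32 and -0.05, Wnt9b 0.31 and -0.03, and Axin2 0.16 and -0.03, so the direction of these 4 genes on 1 array depended on the scaling.

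Promoters were searched for the core letters bound by RBPJ (GTGGGAA) and by Tcf/Lef factors (CTTTGAT), on both strands, in RefSeq windows from 250 bases before to 50 after each gene start (build GRCm38.p6); the letters of these motifs do not overlap. Of the members, 33 had such a window. The RBPJ core was found for 3 of them (Lef1, Sp5 and Wnt9a), or 9.09%, where 7.25% of all 27025 genes with a window hold it. The Tcf/Lef core was found for 4 (Sp5, Tnfrsf19, Wnt5b and Wnt11), or 12.1%, against 4.29% of all genes. Sp5 and Tnfrsf19 are among the genes higher on both arrays, Wnt5b was lower on both (-0.09 and -0.01), and Wnt11 had opposite signs. A match describes letters and is not evidence of a bound site. The stretches with the Tcf/Lef core, and the Sp5 stretch with the RBPJ core, follow, with the motif in capitals; they lie at GRCm38.p6 chr2:70474808-70474837 and chr2:70474846-70474875 (Sp5), chr14:61038171-61038200 (Tnfrsf19), chr6:119449439-119449468 (Wnt5b) and chr7:98835050-98835079 (Wnt11), each read in the direction of its gene.
Sp5, Tcf/Lef core: ggcaaggccccCTTTGATcaggaaaatcca
Sp5, RBPJ core: tgtatatacatTTCCCACatagtgattact
Tnfrsf19, Tcf/Lef core: ctgaatgggggATCAAAGtgacaaactaga
Wnt5b, Tcf/Lef core: agtaagtctctCTTTGATctgctccctgtc
Wnt11, Tcf/Lef core: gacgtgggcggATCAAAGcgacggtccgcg

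Other genes of the pathway, in lists of 66 genes, were read beside the members. Of the 61 measured, 18 were higher on both arrays, 9 lower on both and 34 opposite, with a median of 0.0034, and 0 passed limma at an adjusted p under 0.05 (3 at an unadjusted p under 0.05). In ligand secretion and R-spondin supply, 1 of 6 was higher on both, 0 lower: Rspo1 had -0.16 and 0.71, Rspo2 -0.22 and 0.38, Rspo3 -0.02 and 0.22, and Wls, the carrier of Wnt proteins to the surface, -0.29 and 0.36. Notum, an enzyme that inactivates Wnt proteins, had 0.15 and -0.37. Thus 4 of the 6 were below 0 on replicate 1 and above 0 on replicate 2, a pattern of 7158 of the 20495 genes tested, and Notum had the reverse. In the Dishevelled and destruction complex list, 5 of 15 were higher on both and 0 lower, with Ctnnb1, which encodes beta-catenin, at 0.05 and -0.15, Apc2 at 0.14 and 0.10, and Axin1 at 0.21 and -0.43. Among nuclear partners, 1 of 11 was higher on both (Bcl9, 0.27 and 0.12) and 2 lower (Tle2, a co-repressor, -0.17 and -0.28, and Tcf7l1, -0.13 and -0.0043).

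Planar cell polarity genes, which align cells within a sheet, held the largest ratio of these lists. Celsr3, a cadherin receptor of developing neurons, had 0.36 and 1.45, a mean of 0.90 ± 0.77 (limma adjusted p = 1). Its ratio was larger on replicate 2, as was that of Fzd10. Its relative Celsr1 had 0.22 and 0.23. In that list 4 of 11 were higher and 3 lower on both. Of 6 further Wnt-responsive genes, 1 was higher on both (Tbx2, 0.17 and 0.52), and 1 was lower on both (Apcdd1, -0.07 and -0.23). Among 12 secreted antagonists and Dkk receptors, 6 were higher and 3 lower on both, with Wif1 at -0.55 and -0.91, Sostdc1 at 0.65 and 0.15, and Frzb at 0.66 and -0.0016.

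**Figure D5:**
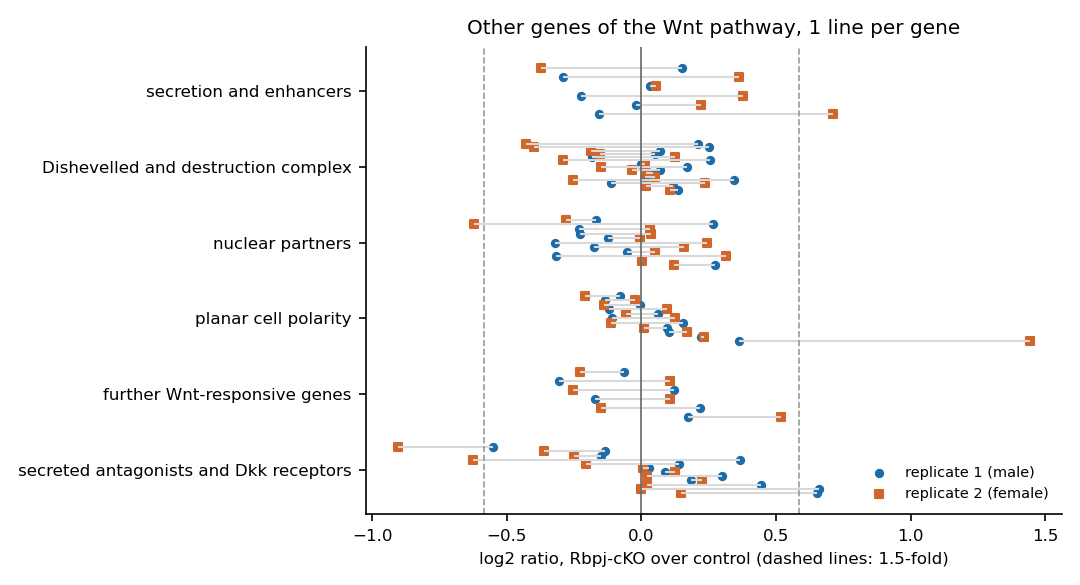
Log2 ratio of Rbpj-cKO over control (horizontal axis) for the other genes of the Wnt pathway, with 1 line per gene joining replicate 1 (circle) and replicate 2 (square), by list; dashed lines mark 1.5-fold. Celsr3 is the point at 1.45 on the right, and Wif1, at -0.55 and -0.91, lies farthest to the left.

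Markers of other cells differed between the channels beside these genes. All 8 markers of neural crest, glia and neurons were higher in Rbpj-cKO on both arrays, with a median of 0.75, and 0 of them were below background. Their summed signal was 26190 to 34870 in control and 32320 to 42970 in Rbpj-cKO. Mesothelial markers were higher on both arrays for 2 of 6, with 0 lower on both, and their sums were 6614 to 6778 in control and 5500 to 8023 in Rbpj-cKO. Markers of nephrons and their progenitors included Six2 at -1.57 and 0.51 and, among collecting duct markers (a list that holds Wnt11 too), Ret had -0.51 and 1.99. The sums of these lists were 7911 to 9920 and 689 to 1065 in control, and 7791 to 10630 and 978 to 994 in Rbpj-cKO, with Nphs1 alone below background. All 7 skeletal muscle markers were higher on replicate 1 and lower on replicate 2, with sums of 2449 to 6692 in control and 2126 to 5059 in Rbpj-cKO. That pattern held for 5 of 6 erythroid markers, with sums of 65560 to 84600 in control and 45410 to 103600 in Rbpj-cKO, and for all 5 measured gonad and adrenal markers (3695 to 5888 in Rbpj-cKO and 4398 to 5337 in control, with Amh below background). It held for 11 of the 39 Wnt members, while 9 had the reverse, and over all 20495 genes these counts were 7021 and 7158. Macrophage markers were higher on both arrays for 4 of 5, with sums of 3471 to 3728 in control and 3659 to 4999 in Rbpj-cKO. Of 7 smooth muscle markers, 1 was higher and 3 were lower on both arrays, with sums of 8081 to 8149 in control and 6528 to 9158 in Rbpj-cKO. Among them Myocd, a coactivator of smooth muscle genes, had -0.67 and -1.04 (limma adjusted p = 0.651). The part of these cells in the ratios of the Wnt genes was not tested.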

How the data were processed

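RNA of E14.5 ureters was hybridised to 2 two-colour arrays that were parts of 1 slide read in 1 scan. The authors deposited linear intensity values of each spot and its local background, not normalized, along with the intensity that the scanner software had corrected for background, trend and dye. A log10 value of red divided by green, from those corrected signals, was also deposited. Per the submitters' processing notes, Agilent Feature Extraction 10.7.3.1 was used. Probe coordinates are on mm9, per the file headers. The authors' series table holds a signed fold score; with its log2 size it followed the scanner's ratio turned to Rbpj-cKO over control (r = 0.782 and 0.849 across probes), was read in that direction, and served only as an alternative. The sources used here do not say how it was made or centred; both column medians are 1.

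Background was corrected with normexp (offset 50, which pulls ratios of dim spots towards 0), ratios were normalized by loess with weight 0 for 17263 control spots, outlier spots (3.57% and 3.90%) were dropped, saturation affected no spot, and the 4 spots of a probe were averaged (limma 3.58.1, R 4.3.3). Replicate 2 was multiplied by -1. A probe passed if, on both arrays, either channel had 2 or more spots well above background (26980 probes). Names came from RefSeq accessions (28328 probes) or symbols, and the brightest probe stood for a gene. The mean of 2 ratios was tested against 0 with lmFit and eBayes (two-sided, Benjamini-Hochberg over 20495 genes). The procedure was checked on simulated data in which, unlike here, the noise of the arrays was independent. That check does not show how the test behaves on these arrays. The median spot SD was 0.041 and 0.055, and the number of arrays limits the precision. P-values measure only spread between these 2 samples. For each gene, limma draws that spread towards the spread of all genes (5.57 prior degrees of freedom, against 1 residual). The members and lists were chosen with earlier results of these data known. By the naming rule, values on each array are given for members past 1.5-fold on both arrays, the 15 members with the largest mean and 23 fixed members; the text extends this to all measured members. Of other lists it names up to 3 genes with the largest mean, and Ctnnb1, Tcf7l1, Rspo2 and Wls were added after their values were seen.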

Additional observations from a re-analysis of the deposited data

How the results depend on the processing

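The 39 measured members kept the direction of their mean under 9 alternatives except in 4 instances, all with means near 0. Rnf43 (-0.0061) and Wnt8b (-0.00040) changed under median centring. Ror1 changed with the scanner software's ratios (0.0044) and in the authors' series table (0.0081). Some of the 9 could not change a direction. The intensity trend alters only p. Removing the filter on dim probes, or asking for 4 of 4 spots, left each member that was kept with the same probe and mean. Averaging probes could move only members with 2 probes past the filter. No member passed limma's test under any alternative, and the smallest adjusted p of a member was 0.9999. Over all genes, 2 passed with the scanner software's ratios and 5 with an intensity trend and robust moderation, against 0; at an unadjusted p under 0.05 the counts were 172 with median centring and 501 without the filter, against 372, and for the members 1 and 5, against 3. Median centring left 7 members higher and 4 lower on both arrays. The same count was not made over all genes, and the cause was not tested. With 1 array alone there is no test. Without replicate 1 or replicate 2, 20 and 22 members were higher, 19 and 17 lower, and 2 and 0 past 1.5-fold. Over all 20495 genes tested, 614 and 359 were past 1.5-fold. The median of the members was 0.0097 and 0.036. The test is itself paired, since each ratio sets Rbpj-cKO against control within an array, and no further replicate block could be added. Dim probes limit Wnt8b, Wnt16, Wnt2 and Fzd5, whose signals reached at most 25.8 units. Znrf3, with signals of at most 42.55 units, was dim too.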
